A study of Mus musculus with 19 samples.

Results

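The Krüppel-like factors (KLFs) are zinc finger transcription factors, and 10 of them were taken by name for this account: Klf2, Klf3, Klf4, Klf5, Klf6, Klf7, Klf9, Klf10, Klf12 and Klf13. The rule uses names and no measured values. Of these 10 genes, 8 are among the 12629 genes of the deposited expression table, and Klf5 and Klf12 were not analysed here. The values come from RNA-seq of GFP-positive dorsal root ganglion (DRG) neurons sorted by FACS 8 weeks after injection of AAV5 vectors into the left C5-C8 DRGs. There are 19 libraries in 4 groups. GFP-naive (n = 5) received AAV5-fGFP and no crush, and GFP-crush (n = 4) received AAV5-fGFP and a crush of the dorsal roots. α9k1-naive (n = 6) received AAV5-α9-V5, which carries the integrin subunit α9, together with AAV5-kindlin1-GFP, which carries the integrin activator kindlin-1, without a crush, and α9k1-crush (n = 4) received the same pair of vectors and the crush. All groups thus had injected ganglia and expressed GFP. Viral promoters drive the transgenes (CMV for fGFP and kindlin-1, the hybrid CAG for α9), and the sorted GFP is carried by the kindlin-1 vector, not by the α9 vector. The strain label names C57BL/6 mice, whereas the abstract, methods and results of the study name adult male rats (Lewis). Reads were aligned to a mouse genome (GRCm38), and the promoter sequences and gene coordinates below are those of the mouse. Nothing in the labels says how many animals stand behind a library, so the p-values measure the spread between these libraries.

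KLFs bind GC boxes and CACCC boxes in promoters through zinc fingers at their carboxyl end, and the parts outside the fingers decide whether a member activates or represses. In the nervous system the family is known for its hold on intrinsic axon growth: KLF6 and KLF7 promote neurite growth of central neurons, and KLF4 and KLF9 suppress it. The expression of KLF4 and KLF9 rises and that of KLF7 falls as central neurons mature and lose growth capacity. The comparison of the growth-promoting pair (Klf6 and Klf7) with the growth-suppressing pair (Klf4 and Klf9) across the 4 groups is the main subject here.

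The promoter sequences of these 4 genes are shown because the family binds GC-rich elements of this kind. They are the bases before the transcription start in RefSeq (GRCm38.p6), 5′ to 3′, and capitals mark CACCC or GGGCGG on either strand (reverse complements GGGTG and CCGCCC). Bases that the GENCODE annotation counts as exon were left out, which are the last 7 of the 250 before the start of Klf6 and the last 102 of Klf7. The stretches are chr13:5861239-5861481 (+ strand, Klf6), chr1:64121492-64121639 (− strand, Klf7), chr4:55532476-55532725 (− strand, Klf4) and chr19:23140976-23141225 (+ strand, Klf9). The RefSeq start of Klf7 is not the outermost start of the gene, so its stretch lies within the longer gene model given below, in an intron of a longer transcript.
Klf6: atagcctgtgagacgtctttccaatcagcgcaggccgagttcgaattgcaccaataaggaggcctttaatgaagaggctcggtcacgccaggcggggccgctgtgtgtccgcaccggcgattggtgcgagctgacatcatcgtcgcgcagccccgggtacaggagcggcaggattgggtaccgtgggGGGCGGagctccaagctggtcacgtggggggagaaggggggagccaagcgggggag
Klf7: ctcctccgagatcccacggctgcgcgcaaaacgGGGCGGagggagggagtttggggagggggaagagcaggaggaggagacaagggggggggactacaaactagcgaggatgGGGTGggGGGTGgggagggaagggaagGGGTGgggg
Klf4: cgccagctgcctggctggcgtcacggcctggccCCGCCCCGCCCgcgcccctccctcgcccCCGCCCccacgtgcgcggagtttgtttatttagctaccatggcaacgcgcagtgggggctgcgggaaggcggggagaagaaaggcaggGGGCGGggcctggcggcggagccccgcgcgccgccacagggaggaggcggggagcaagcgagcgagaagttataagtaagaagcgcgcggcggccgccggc
Klf9: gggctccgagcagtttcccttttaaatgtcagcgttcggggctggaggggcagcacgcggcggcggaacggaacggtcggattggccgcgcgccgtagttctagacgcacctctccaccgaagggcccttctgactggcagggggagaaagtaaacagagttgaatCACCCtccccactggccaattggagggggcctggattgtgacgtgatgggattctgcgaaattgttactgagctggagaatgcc

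Within the 250 bases before the start, Klf4 held GGGCGG 4 times, 2 of them sharing a base, and no CACCC. Klf7 held CACCC 3 times and GGGCGG 1 time, Klf6 held GGGCGG 1 time, and Klf9 held CACCC 1 time and no GGGCGG. Of the other members, Klf2, Klf3 and Klf13 held both motifs, with 5 CACCC and 6 GGGCGG in Klf3. Over all 32851 RefSeq promoters of this length, 52.0% held CACCC and 32.7% held GGGCGG. The E box CACGTG was present in Klf6 and Klf4 (6.02% of all promoters), and the AP-1 type motif TGANTCA in Klf9 (6.75% of all promoters), where it overlaps the CACCC by 2 bases. TGACGTCA was found in none of the 7 members with an entry (1.55% of all promoters). The GC content was 74.0% for Klf4, 64.8% for Klf6, 59.6% for Klf9 and 59.2% for Klf7, against a median of 52.4%. These matches are letters in a window and not evidence of binding. Klf10 had no entry.

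The libraries held 36.4 to 87.6 M read pairs, 47.5% to 54.1% of reads were aligned, and 3.87% to 4.05% of aligned bases differed from the mouse reference. The deposited values are on a log2 scale after normalization for gene length and depth, with library medians of 4.30 to 4.48, and their counting error cannot be derived from them. Fermt1, the gene of kindlin-1, was at 0.42 to 0.80 in the 9 GFP libraries and at 5.18 to 7.73 in the 10 α9k1 libraries. Itga9 was at 0.90 to 2.40 in the GFP libraries and at 2.38 to 7.51 in the α9k1 libraries, where α9k1-naive 2 (2.38) lay just below the highest GFP library. All 13 sensory neuron markers on the list were in the table, led by Uchl1 and Nefl. In bulk samples, fewer cells of a type and less RNA per cell cannot be told apart.

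Differences between groups were estimated with limma in 1 fit over the 19 libraries. Beside the 4 group means it holds 3 covariates, the principal components AlignSeq.PC1 to AlignSeq.PC3 of 48 alignment and sequencing metrics. A log2 fold change (log2FC) is therefore a difference at equal covariates. A call means an adjusted p (Benjamini-Hochberg, taken over the whole table) under 0.1. The covariates differ between groups, since 74.5% of the variance of AlignSeq.PC3 and 52.2% of that of AlignSeq.PC2 lay between groups. AlignSeq.PC3 had a mean of -1.51 (SD 0.35) in α9k1-crush, against -0.14 in GFP-crush, 0.43 in GFP-naive and 0.74 in α9k1-naive. Equal covariates thus lie away from the measured values of α9k1-crush, and differences with this group carry a larger SE in this fit. The group and these metrics cannot be told fully apart in either fit. A fit without covariates is therefore given beside the main one for the KLF members, and for other genes where stated. Exact permutation tests were 2-sided and compare the deposited values. The 4 comparisons are the α9k1 effect without crush (α9k1-naive versus GFP-naive), the α9k1 effect after crush (α9k1-crush versus GFP-crush), the crush effect with GFP (GFP-crush versus GFP-naive) and the crush effect with α9k1 (α9k1-crush versus α9k1-naive). The smallest p that the permutation test can give was 0.00433, 0.0286, 0.0159 and 0.00952 for them, in this order.

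Without crush, α9k1 went with higher values of 3 of the 8 KLFs (Klf6, Klf4, Klf7) and lower values of 2 (Klf3, Klf10). Over all genes, 11.4% were called higher and 17.6% lower in this comparison. At an unadjusted p under 0.05, 4 KLFs were higher and 2 lower, against 13.4% and 21.5% of all genes. After crush, 2 KLFs were higher with α9k1 (Klf6, Klf4) and 0 lower, against 0.728% and 0.182% of all genes, and 4 were higher and 1 lower at an unadjusted p under 0.05 (5.24% and 3.87% of all genes). Crush went with lower KLF values in the GFP groups, where 5 of 8 were lower (Klf4, Klf2, Klf6, Klf13, Klf7) and 0 higher, against 15.7% lower and 7.39% higher of all genes, and 6 were lower and 0 higher at an unadjusted p under 0.05 (20.5% and 10.4% of all genes). With α9k1 the crush effect was called for 0 KLFs in either direction, against 4.47% of all genes higher and 5.27% lower, and 2 were lower and 0 higher at an unadjusted p under 0.05 (11% and 10.5% of all genes). The median log2FC of the 8 genes was 0.23 and 0.62 for α9k1 without and after crush and -0.56 and -0.27 for crush with GFP and with α9k1. The same medians over all genes were -0.08, 0.01, -0.08 and 0.00. The comparisons share libraries, each group standing in 2 of them, so their values are not independent of each other.

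The fit without covariates gave other counts. For α9k1 without crush it called 2 KLFs higher and 3 lower (16.5% and 29.5% of all genes), and for α9k1 after crush 1 higher and 2 lower (29.6% and 28.3%). For crush with GFP it called 6 lower and 0 higher (20.1% and 11%). For crush with α9k1 it called 7 of 8 lower and 0 higher, against 27.1% of all genes lower and 28.5% higher. The groups did not overlap for 3 KLFs with α9k1 without crush (21.7% of all genes), for 1 with α9k1 after crush (40.8%), for 6 with crush and GFP (19.8%) and for 5 with crush and α9k1 (33.4%). Both fits thus called 0 KLFs higher with crush, whereas the count of lower KLFs for crush with α9k1 went from 0 to 7 when the covariates were left out.

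**Figure D1:**
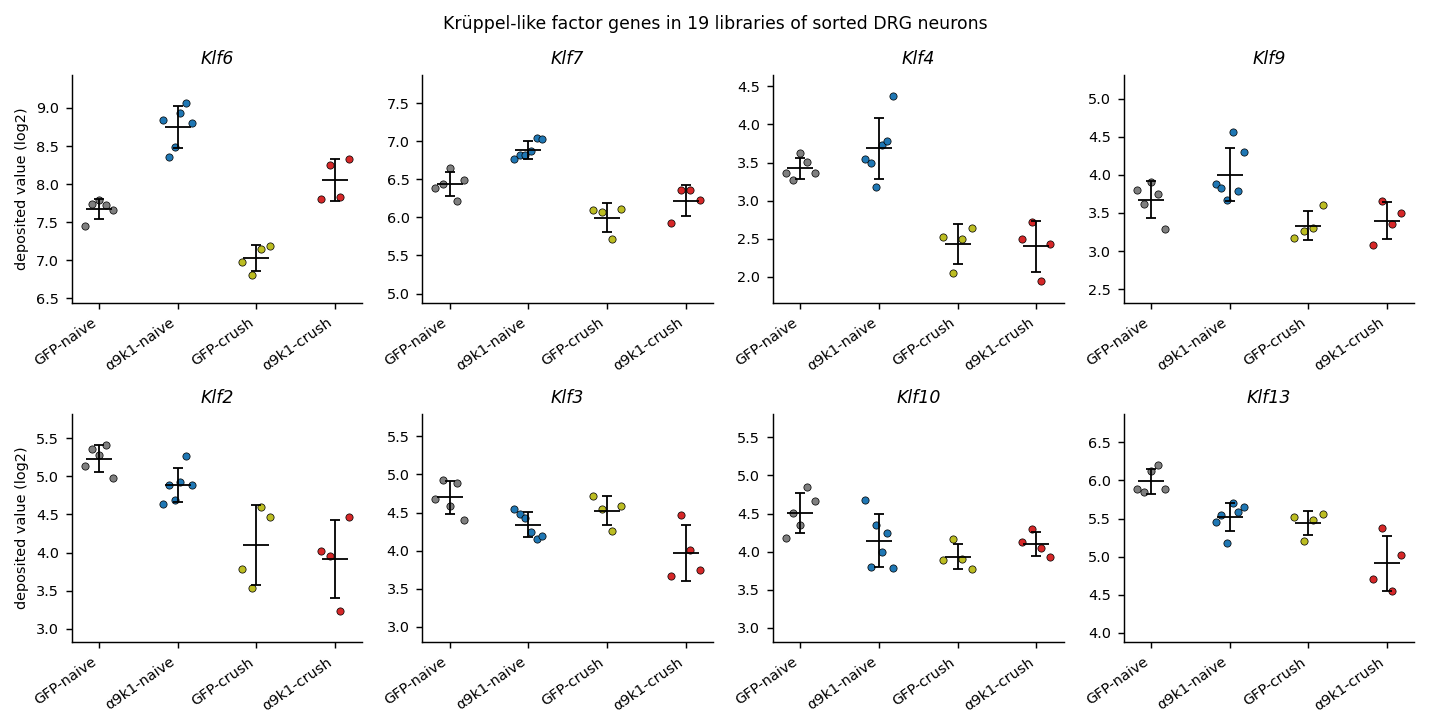
Deposited log2 values of the 8 KLF genes in each library, 1 point per library, in 4 groups of 4 to 6 libraries. Lines and bars are the mean ± SD, and each vertical axis spans 3 log2 units around the middle of that gene's range. Klf6 is higher in every α9k1 library than in the GFP libraries of the same condition, and Klf4 is lower in all 8 crush libraries than in the GFP-naive libraries.

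Klf6 (ENSMUSG00000000078, GRCm38 chromosome 13, 5861489 to 5870393, + strand) encodes a growth-promoting member that many cells induce early after injury or stimulation. In GFP-naive it was at 7.45, 7.74, 7.80, 7.73 and 7.66 on the deposited log2 scale, and in α9k1-naive the lowest, median and highest libraries were at 8.36, 8.82 and 9.07. The libraries with α9k1 were all above those with GFP alone. At equal covariates Klf6 was 2.38-fold higher in α9k1-naive (log2FC 1.25, SE 0.16, adjusted p = 5.3e-05; 1.07 without covariates), with p = 0.0043 in the exact permutation test, which is the smallest that it can give. After crush it was at 6.97, 6.81, 7.14 and 7.19 with GFP and at 7.80, 8.26, 7.83 and 8.33 with α9k1. Again no value of one group reached the other. The log2FC for α9k1 after crush was 1.92 (SE 0.34, 95% interval 1.18 to 2.65, adjusted p = 0.015), and without covariates it was 1.03 (adjusted p = 5.6e-05). The direction held in all fits tried, but the size depended on the covariates.

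With GFP, all 4 crush libraries lay under the 5 naive ones for Klf6 (log2FC -0.77, SE 0.16, adjusted p = 0.0064). Among α9k1 libraries, the crush values (7.80 to 8.33) also lay below the naive ones (8.36 to 9.07), a difference of means of -0.70 with p = 0.0095 in the exact permutation test. At equal covariates this difference was -0.10 (95% interval -0.71 to 0.50, adjusted p = 0.88) and was not called, whereas without covariates it was called at an adjusted p of 0.00068. α9k1-crush libraries started where the GFP-naive libraries ended, at 7.80. The α9k1 effect on Klf6 after crush minus that without crush (interaction) was 0.67 (95% interval -0.03 to 1.36, adjusted p = 0.38), so a different size of the effect in the 2 conditions was not shown.

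Klf7 (ENSMUSG00000025959, chromosome 1, 64029447 to 64122282, − strand) encodes the other growth-promoting member, which also acts in the development of sensory neurons. GFP-naive libraries were at 6.39, 6.44, 6.65, 6.22 and 6.49, and the lowest, median and highest α9k1-naive libraries at 6.76, 6.85 and 7.04. All 6 α9k1-naive values were above the 5 GFP-naive values. The difference was smaller than for Klf6, 1.40-fold (log2FC 0.49, SE 0.15, adjusted p = 0.028; 0.45 without covariates). It was no longer called without α9k1-naive 6 (0.35, adjusted p = 0.27) or without GFP-naive 4 (0.37, adjusted p = 0.13). GFP-crush was at 6.09, 6.08, 5.71 and 6.11 and α9k1-crush at 5.93, 6.36, 6.36 and 6.23. These groups overlapped, and the difference of 0.33 (95% interval -0.35 to 1.02, adjusted p = 0.82) did not pass the test, which leaves room for a difference in either direction. With crush and GFP, Klf7 was lower with no overlap (log2FC -0.42, SE 0.15, adjusted p = 0.071). That call was lost without α9k1-naive 4 or 6 or GFP-naive 2 or 3 (-0.33 to -0.38, adjusted p 0.12 to 0.20) and when each library was centred on its median (-0.28, adjusted p = 0.24). It was also lost with only the 2 groups compared (-0.37, adjusted p = 0.36). In α9k1-crush versus α9k1-naive it was -0.57 (adjusted p = 0.23) at equal covariates and -0.67 (adjusted p = 9.6e-05) without them, with separate groups.

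Klf4 (ENSMUSG00000003032, chromosome 4, 55527143 to 55532466, − strand) encodes a growth-suppressing member, also known as a pluripotency factor and as an endothelial regulator. Its clearest difference was with crush. GFP-naive libraries were at 3.37, 3.27, 3.62, 3.50 and 3.36, and GFP-crush libraries at 2.52, 2.05, 2.50 and 2.65. The crush libraries were all lower (log2FC -1.26, SE 0.14, adjusted p = 9.4e-05; -0.996 and adjusted p = 0.0019 without covariates), with p = 0.016 in the exact permutation test, the smallest possible for these groups. α9k1-crush libraries were at 2.50, 2.73, 1.94 and 2.43 and lay with GFP-crush, below all α9k1-naive libraries (lowest 3.18, median 3.64, highest 4.37). The log2FC of α9k1-crush versus α9k1-naive was -0.65 (95% interval -1.19 to -0.11, adjusted p = 0.16) at equal covariates and -1.29 (adjusted p = 2.5e-05) without them. At equal covariates it was called when α9k1-crush 2 (-0.70, adjusted p = 0.097) or α9k1-naive 3 (-0.80, adjusted p = 0.095) was left out.

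For the α9k1 effect on Klf4 the 2 fits part. In the deposited values α9k1-naive (mean 3.68 ± 0.40, SD, n = 6) overlapped GFP-naive (3.42 ± 0.14, n = 5), with p = 0.19 in the exact permutation test, and α9k1-crush (2.40 ± 0.33, n = 4) overlapped GFP-crush (2.43 ± 0.26, n = 4), with p = 0.83. With the covariates in the fit Klf4 was called higher with α9k1 in both, at a log2FC of 0.76 (SE 0.14, adjusted p = 0.0014) without crush and 1.37 (SE 0.31, adjusted p = 0.061) with it. Without covariates the values were 0.26 (adjusted p = 0.26) and -0.03 (adjusted p = 0.91), so the calls rest on the covariates and the direction after crush turned with them. The call after crush was also lost when any 1 of 8 libraries was left out, α9k1-crush 1 or 4, α9k1-naive 3 or 6, GFP-crush 2 or GFP-naive 1, 3 or 4 (1.21 to 1.501, adjusted p 0.10 to 0.24). It was lost as well with only the 2 groups compared (1.45, adjusted p = 0.77), with median centring (1.29, adjusted p = 0.11) and with trend and robust (adjusted p = 0.15).

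Klf9 (ENSMUSG00000033863, chromosome 19, 23141226 to 23166911, + strand) encodes the other growth-suppressing member, which thyroid hormone and glucocorticoids induce. It was at 3.80, 3.62, 3.91, 3.75 and 3.29 in GFP-naive and at 3.67 (lowest), 3.85 (median) and 4.56 (highest) in α9k1-naive. These groups overlapped. The log2FC of 0.46 (SE 0.19, adjusted p = 0.10) just missed the threshold, and it passed with quantile normalization (0.53, adjusted p = 0.056) and with median centring (0.51, adjusted p = 0.068). It also passed with the filter on low values (adjusted p = 0.086) and without α9k1-crush 1, α9k1-naive 5, GFP-crush 2 or GFP-naive 1 (0.48 to 0.56, adjusted p 0.072 to 0.085). Without α9k1-naive 6 it was 0.25 and not called. GFP-crush was at 3.17, 3.26, 3.30 and 3.60 and α9k1-crush at 3.08, 3.66, 3.36 and 3.50. Neither the α9k1 effect after crush (0.91, 95% interval 0.01 to 1.80, adjusted p = 0.54) nor the crush effect in GFP (-0.33, 95% interval -0.75 to 0.08, adjusted p = 0.26) was called. Without covariates these were 0.07 (adjusted p = 0.78) and -0.34 (adjusted p = 0.17). The α9k1 effect without crush was 0.33 (adjusted p = 0.12) in that fit. α9k1-crush lay below α9k1-naive without overlap (p = 0.0095 in the exact permutation test), and the difference was -0.60 (adjusted p = 0.0075) without covariates but 0.11 (adjusted p = 0.90) with them.

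**Figure D2:**
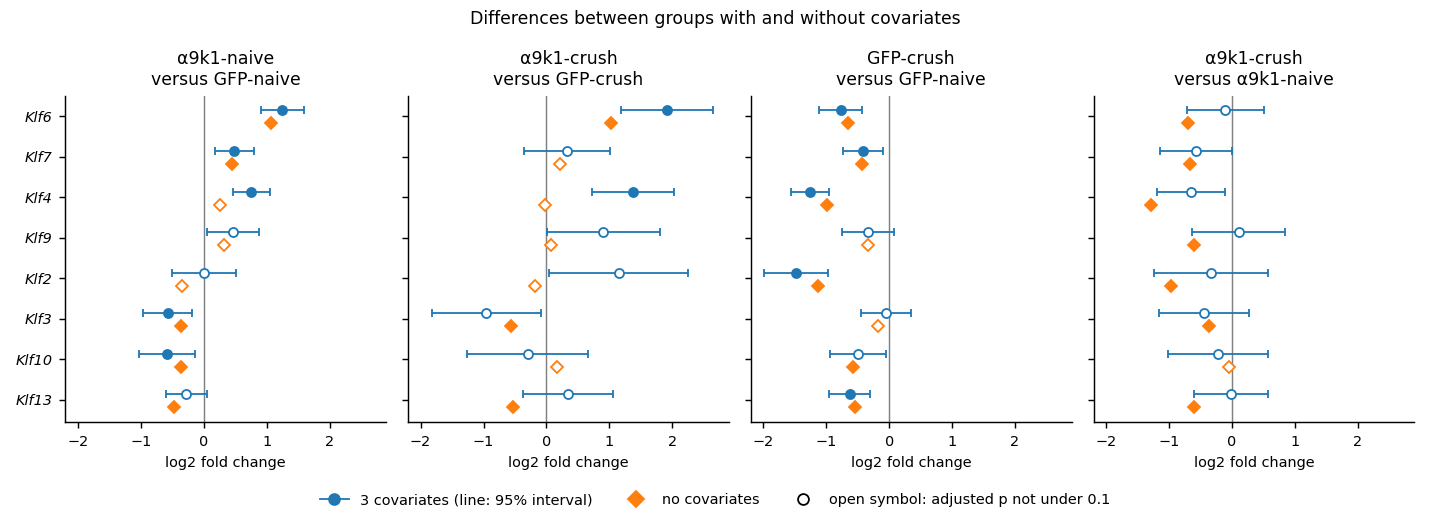
Log2 fold changes of the 8 KLF genes in the 4 comparisons, from the limma fit with 3 covariates (circles, with 95% intervals) and without covariates (diamonds). Filled symbols have an adjusted p under 0.1. Klf6 is above 0 in both α9k1 comparisons with either fit, whereas Klf4 lies at 1.37 with and at -0.03 without covariates after crush.

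The growth-promoting and growth-suppressing pairs were set against each other within each library, as the mean of Klf6 and Klf7 minus the mean of Klf4 and Klf9 on the deposited log2 scale. The rule names this contrast, so it is given as a description with no test. Relative to the GFP-naive mean, this balance ranged from -0.17 to 0.25 in GFP-naive (SD 0.19, n = 5). The mean was 0.47 ± 0.27 (SD, n = 6) for α9k1-naive. For GFP-crush it was 0.13 ± 0.13 (n = 4), and for α9k1-crush 0.73 ± 0.17 (n = 4). All 4 α9k1-crush libraries (0.57 to 0.94) lay above all GFP-crush (0.02 to 0.28) and GFP-naive libraries. α9k1-naive ranged from 0.07 to 0.76 and overlapped both GFP groups. This order of the groups holds on the deposited scale only. At equal covariates the balance relative to GFP-naive was 0.26 (SE 0.15) for α9k1-naive, 0.20 (SE 0.15) for GFP-crush and 0.19 (SE 0.30) for α9k1-crush, from least squares over the 19 libraries. α9k1-crush then differed from GFP-crush by -0.013 (SE 0.33), so a shift of the balance with α9k1 after crush was not shown.

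On the deposited scale the balance was made up differently in the 2 α9k1 groups. In α9k1-naive the promoting pair was 0.76 ± 0.17 above the GFP-naive mean and the suppressing pair 0.29 ± 0.34 above it. In α9k1-crush the promoting pair was near the GFP-naive mean (0.08 ± 0.21) and the suppressing pair below it (-0.65 ± 0.23). GFP-crush had both pairs low, at -0.54 ± 0.10 and -0.67 ± 0.19. After crush, then, the α9k1 and GFP libraries overlapped in the deposited mean of Klf4 and Klf9 and did not overlap in that of Klf6 and Klf7. With the covariates in the fit both pairs were higher in α9k1-crush than with GFP after crush by a like amount, 1.13 (SE 0.26) for the promoting and 1.14 (SE 0.30) for the suppressing pair. The suppressing pair of α9k1-crush then lay 0.34 (SE 0.27) above GFP-naive instead of below it, and the promoting pair 0.53 (SE 0.23) above it.

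Among the single pairs on the deposited scale, the difference of Klf6 and Klf4 moved most in both α9k1 groups, by 0.81 ± 0.36 in α9k1-naive and 1.40 ± 0.29 in α9k1-crush, with 0.35 ± 0.13 in GFP-crush. Klf7 minus Klf4 moved by 0.19 ± 0.32 and 0.81 ± 0.43 in the α9k1 groups and by 0.56 ± 0.34 in GFP-crush. Klf6 minus Klf9 moved by 0.75 ± 0.34, -0.31 ± 0.15 and 0.65 ± 0.16 in α9k1-naive, then GFP-crush, then α9k1-crush. Klf7 minus Klf9 was within 1 SD of the GFP-naive mean in each of them (0.12 ± 0.34, -0.10 ± 0.24 and 0.06 ± 0.14). Whichever suppressing gene is subtracted, the gap between the differences with Klf6 and with Klf7 is that between Klf6 and Klf7 themselves. Relative to GFP-naive, Klf6 lay above Klf7 in both α9k1 groups, also at equal covariates. There Klf6 minus Klf4 was 0.49 (SE 0.19) in α9k1-naive, below the 0.79 (SE 0.22) of Klf6 minus Klf9, and in α9k1-crush these were 1.03 (SE 0.37) and 0.57 (SE 0.43). Klf7 minus Klf4 was -0.27 (SE 0.19) and -0.20 (SE 0.36) in these groups, so its direction turned with the covariates. Klf7 minus Klf9 was 0.02 (SE 0.22) and -0.66 (SE 0.42).

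**Figure D3:**
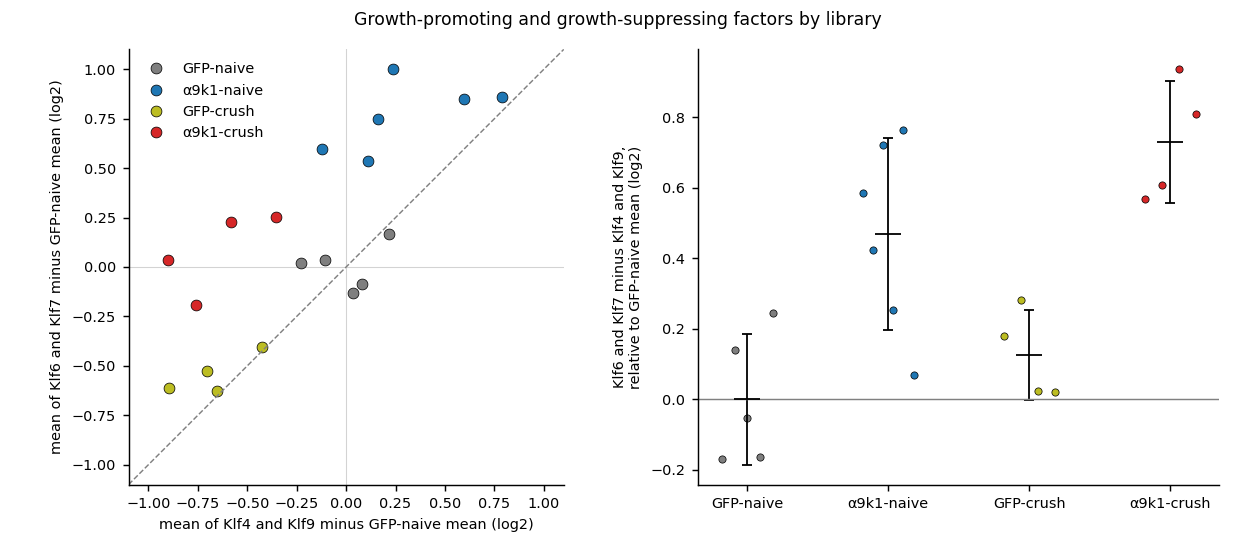
Left, mean of Klf6 and Klf7 against mean of Klf4 and Klf9 in each library, both in deposited log2 units relative to the GFP-naive mean and without covariates, with the dashed line where both changed alike. Right, their difference by group with mean ± SD. α9k1-crush libraries lie above the line at 0.57 to 0.94, and GFP-crush libraries at 0.02 to 0.28, whereas at equal covariates the means of these groups differ by -0.013 (SE 0.33).

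The other 4 members measured were Klf2, Klf3, Klf10 and Klf13. Klf2 (ENSMUSG00000055148, chromosome 8, 72319033 to 72321656, + strand), a factor of quiescent T cells and of endothelium under flow, was at 5.13, 5.36, 5.28, 5.42 and 4.98 in GFP-naive and at 3.79, 3.54, 4.60 and 4.47 in GFP-crush. Every crush library was lower, and 2 of them fell further than the other 2. The log2FC was -1.47 (SE 0.24, adjusted p = 0.0014; -1.13 without covariates), the largest crush difference with GFP among the 8 members at equal covariates. α9k1-crush was at 4.02, 3.96, 3.23 and 4.47, overlapping GFP-crush, and α9k1-naive ranged from 4.64 to 5.26 (median 4.89). The crush effect with α9k1 was -0.33 (adjusted p = 0.72) at equal covariates. It was -0.96 (adjusted p = 0.0016) without them, and these groups did not overlap. The α9k1 effects were 0.01 (adjusted p = 0.99) without crush and 1.15 (95% interval 0.04 to 2.25, adjusted p = 0.53) with it, and without covariates they were -0.35 and -0.18, also not called. With 1 library left out they ranged from -0.12 to 0.50 and from 0.71 to 1.67, with the highest value of both without α9k1-naive 6 and the lowest after crush without GFP-crush 2, and neither was called in any of these fits.

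Klf13 (ENSMUSG00000052040, chromosome 7, 63886351 to 63938915, − strand), known from T lymphocytes, was at 5.52, 5.21, 5.48 and 5.55 in GFP-crush and higher in GFP-naive (5.88, 5.85, 6.12, 6.20 and 5.89). No value overlapped (log2FC -0.63, SE 0.15, adjusted p = 0.016). α9k1-naive libraries, from 5.17 to 5.70 with a median of 5.57, were also below GFP-naive with p = 0.0043 in the exact permutation test, but at equal covariates the difference of -0.28 (adjusted p = 0.22) was not called, except with only the 2 groups compared (-0.37, adjusted p = 0.092) and without α9k1-crush 2 (-0.33, adjusted p = 0.055). It was -0.47 (adjusted p = 0.011) without covariates. In α9k1-crush (4.70, 5.37, 4.55 and 5.02) versus GFP-crush the direction turned with the covariates, from -0.53 (adjusted p = 0.0097) without them to 0.34 (adjusted p = 0.83) with them. In α9k1-crush versus α9k1-naive the difference was -0.61 (adjusted p = 0.0020) without covariates and -0.01 (adjusted p = 0.99) with them, and the groups overlapped.

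Klf3 (ENSMUSG00000029178, chromosome 5, 64803388 to 64832901, + strand) encodes a repressor that recruits CtBP corepressors. With crush and GFP it had the smallest difference of the 8 members (log2FC -0.06, 95% interval -0.45 to 0.34, adjusted p = 0.87). GFP-naive was at 4.68, 4.92, 4.59, 4.89 and 4.40 and α9k1-naive at 4.16 to 4.55 with a median of 4.33. The α9k1 libraries were lower with overlap (log2FC -0.57, SE 0.19, adjusted p = 0.038; -0.36 without covariates), and the call was lost without GFP-naive 4 (-0.52, adjusted p = 0.12). After crush the difference was -0.96 (adjusted p = 0.50) with and -0.56 (adjusted p = 0.0094) without covariates. α9k1-crush was at 3.67, 4.47, 4.0 and 3.74 and GFP-crush at 4.72, 4.54, 4.26 and 4.59, so that 1 α9k1-crush library lay among the GFP-crush values.

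Klf10 (ENSMUSG00000037465, chromosome 15, 38294413 to 38300707, − strand) encodes the TGF-β-inducible early gene 1 protein, TIEG1. It was at 4.18, 4.51, 4.34, 4.85 and 4.66 in GFP-naive and from 3.79 to 4.68 (median 4.12) in α9k1-naive, lower with overlap (log2FC -0.58, SE 0.21, adjusted p = 0.057; -0.37 without covariates). That call was lost without α9k1-naive 6 (-0.44, adjusted p = 0.33) or GFP-naive 4 (-0.43, adjusted p = 0.21), and with only the 2 groups compared (-0.67, adjusted p = 0.13). GFP-crush libraries (3.89, 4.16, 3.90 and 3.77) were all below GFP-naive, with p = 0.016 in the exact permutation test, and the difference was -0.50 (adjusted p = 0.12) with and -0.58 (adjusted p = 0.023) without covariates. With them it passed under the filter on low values (adjusted p = 0.097) and without α9k1-crush 2, α9k1-naive 1, α9k1-naive 2 or GFP-naive 1 (-0.49 to -0.53, adjusted p 0.079 to 0.091). α9k1-crush was at 4.12, 4.30, 4.05 and 3.92. It was the member for which the interaction was called without covariates (0.53, adjusted p = 0.099), where 23.3% of all genes were called higher and 16.1% lower. With covariates 0 of the 8 KLFs had a called interaction (1.35% of all genes higher, 0.847% lower), and 1, Klf2, was higher at an unadjusted p under 0.05 (1.14, 95% interval 0.10 to 2.18, adjusted p = 0.31), where 8.85% of all genes were higher and 5.13% lower.

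On the deposited scale, which is normalized for gene length, Klf6 had the highest mean level over all libraries (7.96, above 95.3% of genes), followed by Klf7 (6.44), Klf13 (5.50), Klf2 (4.61), Klf3 (4.40), Klf10 (4.19), Klf9 (3.65) and Klf4 (3.08, above 20.4% of genes). The growth-promoting pair thus sat at higher levels than the growth-suppressing pair in every library. How well the reads of each gene matched the mouse reference was not examined, so levels of different genes are not strictly comparable.

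The genes with the profile most like that of Klf6 over the 19 libraries were Rnd3 (r = 0.98), which encodes an atypical small GTPase, Cebpb (0.97), a bZIP transcription factor gene, and Snx18 (0.97), a sorting nexin gene. Klf7 was matched best by Isg15 (0.92), an interferon-induced ubiquitin-like modifier, Oas1a (0.92), an interferon-induced oligoadenylate synthetase, and Gm15743 (0.90). For Klf4 the closest were Pdzd2 (0.94), Cald1 (0.94), which encodes the actin-binding caldesmon, and Rhoj (0.93), a small GTPase gene of endothelium. For Klf9 they were Hdgfrp3 (0.87), Vps37b (0.87), an ESCRT-I subunit gene, and Aldh9a1 (0.86), an aldehyde dehydrogenase gene. These are Pearson coefficients over libraries that share group structure and differ in depth, and are a description.

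Of the remaining family, Klf11, Klf15 and Klf16 were in the table (3 of 7 listed). Klf11, a relative of Klf10, was at 2.79, 3.11, 3.14, 3.58 and 2.85 in GFP-naive and at 3.97 (lowest), 4.26 (median) and 4.58 (highest) in α9k1-naive. This increase with no overlap (log2FC 1.18, SE 0.23, adjusted p = 0.0021) was close in size to that of Klf6, while its nearest relative Klf10 was lower. Klf15, which glucocorticoids induce, was lower with α9k1 without crush (-0.44, adjusted p = 0.089) and with crush and GFP (-0.45, adjusted p = 0.097). Without covariates Klf15 was also lower with α9k1 after crush (-0.84, adjusted p = 0.00076, against -0.08 with them) and with crush and α9k1 (-0.73, adjusted p = 0.0011, against -0.09). For Klf11 that fit called the α9k1 effect after crush (0.48, adjusted p = 0.045, against 0.91 and adjusted p = 0.62 with covariates), the crush effects with GFP (-0.50, adjusted p = 0.057) and with α9k1 (-1.21, adjusted p = 2.2e-05), and the interaction (-0.71, adjusted p = 0.043), none of which was called with covariates. Klf16 had no call (-0.24 to 0.05 in the 4 comparisons). The Sp factors, which bind the same GC boxes, were represented by 2 of 9: Sp3 was lower with α9k1 without crush (-0.40, adjusted p = 0.048) and with crush and GFP (-0.82, adjusted p = 0.0020), and Sp2 had no call with covariates. Without them Sp3 was not called with α9k1 (-0.22, adjusted p = 0.35), and Sp2 was lower with α9k1 after crush (-0.28, adjusted p = 0.082), with crush and GFP (-0.33, adjusted p = 0.063) and with crush and α9k1 (-0.58, adjusted p = 0.00065).

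Proteins that work with KLFs were represented by 12 cofactors and ubiquitin ligases, all measured. For α9k1 without crush 0 were higher and 3 lower, where 17.6% of all genes were lower: Hdac2 (-0.42, adjusted p = 0.019) and Hdac3 (-0.36, adjusted p = 0.098), which encode histone deacetylases, and Fbxw7 (-0.37, adjusted p = 0.097), which encodes the substrate receptor of a ligase for KLF proteins. In the other 3 comparisons limma called 0 of 12 in either direction. At an unadjusted p under 0.05, 1 was higher and 2 lower for crush with GFP (10.4% and 20.5% of all genes), and 0 in the rest of these 3. Without covariates the counts for α9k1 after crush were 2 higher (Ctbp1 and Sin3a, both corepressor genes) and 0 lower, against 29.6% and 28.3% of all genes. That fit called 1 higher and 4 lower for α9k1 without crush (16.5% and 29.5% of all genes). It called 0 higher and 2 lower for crush with GFP (11% and 20.1%), and 3 higher and 2 lower for crush with α9k1 (28.5% and 27.1%).

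Genes reported as KLF targets were called in both directions. Of the 8 measured of 9, 1 was higher and 2 lower in α9k1-naive, against 11.4% and 17.6% of all genes. Cdkn1a, a cell cycle inhibitor gene that KLF4 and KLF6 activate, was higher (log2FC 2.61, adjusted p = 4.0e-05), from a mean of 2.61 in GFP-naive to 5.11. Cdkn1b (-1.15, adjusted p = 0.0011) and Eng (-1.22, adjusted p = 0.060) were lower. With crush and GFP, Cdkn1a was higher (1.103, adjusted p = 0.034), and L1cam, a neurite growth adhesion gene, was lower (-0.62, adjusted p = 0.040), as were Cdkn1b (-0.55, adjusted p = 0.087) and Thbd (-1.26, adjusted p = 0.031). Over all genes, 7.39% were called higher and 15.7% lower in this comparison. Without covariates Cdkn1b (-0.31, adjusted p = 0.28) and Thbd (-0.79, adjusted p = 0.11) were not called there. No target was called for α9k1 after crush by limma with covariates, with 1 higher and 0 lower at an unadjusted p under 0.05 (5.24% and 3.87% of all genes). Without covariates L1cam was higher there (1.60, adjusted p = 1.3e-05, against 0.26 and adjusted p = 0.91 with them), and Gap43, the growth cone gene, was lower (-0.74, adjusted p = 0.0096), as was Cdkn1b (-1.096, adjusted p = 0.00040). With crush and α9k1, Eng was called higher with covariates (2.51, adjusted p = 0.079) and not without them (0.61, adjusted p = 0.23). The fit without covariates called Gap43 (-0.94, adjusted p = 0.00092) and Cdkn1a (-1.11, adjusted p = 0.0012) lower there and L1cam higher (0.40, adjusted p = 0.092).

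Because KLF9 is induced by glucocorticoids, 8 glucocorticoid-induced genes were listed, of which 6 were measured. Sgk1 followed α9k1 in both conditions (1.37, adjusted p = 9.1e-05, without crush and 1.91, adjusted p = 0.041, after it). Fkbp5 (0.63, adjusted p = 0.031) and Pdk4 (2.54, adjusted p = 7.2e-05) were higher without crush, and Tsc22d3 (-0.40, adjusted p = 0.045) and Errfi1 (-0.47, adjusted p = 0.065) lower. In the fit without covariates Tsc22d3 (-0.21, adjusted p = 0.18) was not called there, whereas Ddit4 was called lower (-0.62, adjusted p = 0.0022). At equal covariates the list held 3 higher and 2 lower genes for α9k1 without crush (11.4% and 17.6% of all genes). After crush it held 1 higher and 0 lower (0.728% and 0.182%). Without covariates 5 of 6 were higher after crush and 1, Ddit4, lower, where 29.6% and 28.3% of all genes were called. With crush and GFP, 0 were higher and 4 lower (7.39% and 15.7% of all genes).

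Immediate early genes, which many cells switch on soon after stimulation or dissociation, were called in the direction of Klf6 in 3 of the 4 comparisons. Of 15 measured of 16, 14 were higher with α9k1 without crush (11.4% of all genes) and 10 after it (0.728%). In both, 0 were lower (17.6% and 0.182% of all genes). With crush and GFP, 14 were lower (15.7% of all genes). With crush and α9k1, 6 were lower and 0 higher (14 lower and 1 higher without covariates), where Klf6 was not called at equal covariates. Over all genes, 5.27% were lower and 4.47% higher in this comparison, and 27.1% and 28.5% without covariates. The summed level of the list was 12.11 to 12.42 in GFP-naive, 13.65 to 14.09 in α9k1-naive, 10.90 to 11.34 in GFP-crush and 12.31 to 12.94 in α9k1-crush, in log2 units. Atf3, a regeneration-associated transcription factor gene, was at means of 7.08, 10.09, 6.52 and 8.64 in these groups, and Fos at 10.71, 12.14, 9.43 and 10.90. Like Klf6, they were highest in α9k1-naive and lowest in GFP-crush. The part of early gene induction in the Klf6 values was not tested.

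Genes of other cell types differed too between the groups. Over all genes, 11.4% were called higher and 17.6% lower with α9k1 without crush, and 7.39% and 15.7% with crush and GFP. Fibroblast markers (6 measured of 7) were lower with α9k1 without crush for 6 of 6 and with crush and GFP for 5 of 6. Their summed level in log2 units was 9.45 to 9.76 in GFP-naive, 6.78 to 8.26 in α9k1-naive, 8.14 to 8.45 in GFP-crush and 7.95 to 8.37 in α9k1-crush. Endothelial markers (7 measured of 12, with Pecam1, Cdh5 and Kdr not analysed here) were lower in α9k1-naive for 7 of 7, with sums of 6.96 to 7.51 in GFP-naive, 4.92 to 6.45 in α9k1-naive, 6.88 to 7.67 in GFP-crush and 5.27 to 6.76 in α9k1-crush.

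Macrophage markers (9 measured of 12) were higher for 6 of 9 with α9k1 without crush (11.4% of all genes) and for 6 of 9 with crush and GFP (7.39%). The sums were 7.43 to 7.99 in GFP-naive, 8.70 to 9.18 in α9k1-naive, 9.10 to 9.72 in GFP-crush and 8.73 to 9.68 in α9k1-crush. Satellite glia and Schwann cell markers (11 of 11 measured) were higher for 2 and lower for 5 with α9k1 without crush (11.4% and 17.6% of all genes). They were higher for 1 and lower for 4 with crush and GFP (7.39% and 15.7%). Their sums were 13.56 to 13.88 in GFP-naive, 12.61 to 12.97 in α9k1-naive, 13.63 to 14.16 in GFP-crush and 12.82 to 13.65 in α9k1-crush. Sensory neuron markers were higher for 1 and lower for 5 of 13 in α9k1-naive (11.4% and 17.6% of all genes). In GFP-crush they were higher for 7 and lower for 1 (7.39% and 15.7%). Their sums were 13.43 to 13.76, 12.77 to 13.08, 13.97 to 14.46 and 13.97 to 14.47 in the same order of groups. For α9k1 after crush limma with covariates called 0 markers of any of these 5 lists, with at most 2 of a list in either direction at an unadjusted p under 0.05. Over all genes, 0.728% were called higher and 0.182% lower, and 5.24% and 3.87% had that unadjusted p. Without covariates the same comparison had 5 of 7 endothelial markers lower, 7 of 11 glial markers lower and 1 higher, 6 of 13 sensory neuron markers higher and 1 lower, 2 of 9 macrophage markers higher and 1 lower, and 1 of 6 fibroblast markers higher. That fit called 29.6% of all genes higher and 28.3% lower. With crush and α9k1, limma with covariates called 4 of 6 fibroblast, 2 of 7 endothelial, 2 of 9 macrophage and 4 of 13 sensory neuron markers higher and 0 of these lists lower, and 4 glial markers higher and 3 lower. It called 4.47% of all genes higher and 5.27% lower. Without covariates 3 fibroblast, 4 endothelial, 4 macrophage and 10 sensory neuron markers were higher and 0 lower, and 4 glial markers were higher and 5 lower. Of all genes, 28.5% were then higher and 27.1% lower. The lowest group mean of any of these markers was 1.51 (Tie1), and their part in the KLF differences was not tested.

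**Figure D4:**
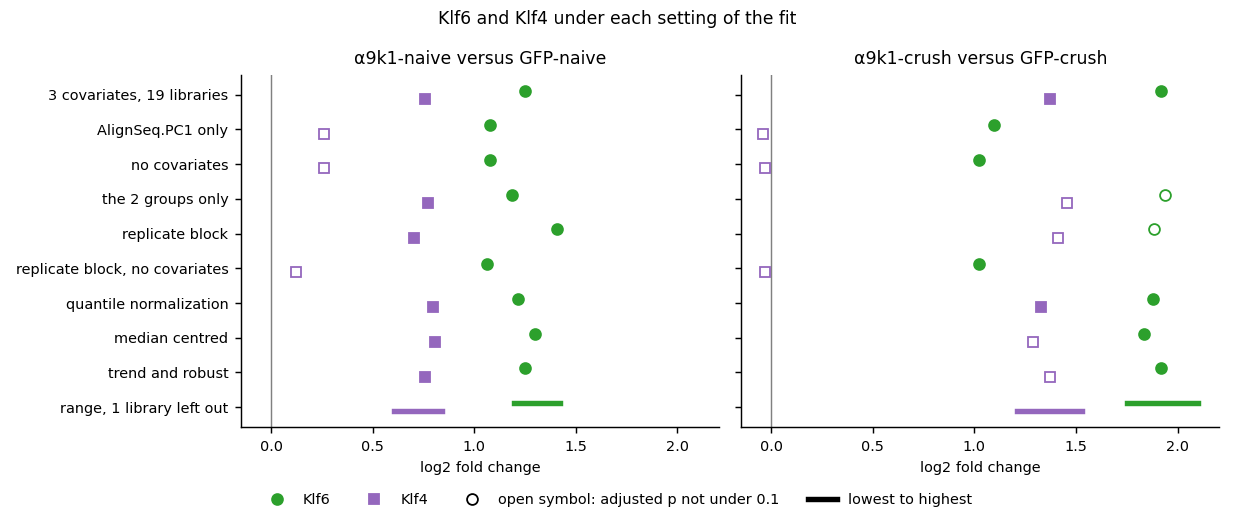
Log2 fold changes of Klf6 and Klf4 with α9k1, without crush (left) and after crush (right), under 9 settings of the limma fit, and the range over 19 fits that each leave out 1 library. Filled symbols have an adjusted p under 0.1, and the filter on low values is not drawn because it removes Klf4. Klf6 stays above 1 in all settings, and Klf4 after crush is near 0 in the 3 settings that hold no covariate or AlignSeq.PC1 alone.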

How the data were processed

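Reads were mapped by the authors with STAR to a mouse reference (GRCm38, mm10), and Salmon gave their read counts per gene. They then removed genes with low counts, took log2 with a small pseudocount and normalized gene length and depth with cqn. These log2 values were deposited for 12629 genes and 19 libraries. Picard metrics of each library were deposited, among them counts of reads or bases. Other deposited metrics are fractions of the reads or of the bases. Dropout at AT-rich and GC-rich sequence is a percentage, as deposited. Coverage by GC content and coverage biases were deposited by the authors as ratios to the mean coverage. The authors' own fold changes and p-values were not used.

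The value table carries no gene names, which were taken from the gene table in the same row order. Row means correlated with the authors' mean column at r = 0.959 in this order, and at 0.081 when shifted by 1 row. limma (3.58.1, R 4.3.3) was fitted to all genes with the 4 group means and AlignSeq.PC1 to AlignSeq.PC3 (45.9%, 24.1% and 11.5% of the variance of 48 scaled metrics). The batch term of the study was left out, as the labels used here give no batch. Exact permutation tests used SciPy 1.17.1. The scripts for limma were tested on simulated data. Alternatives were other covariates, samples, normalizations, filters, variance models and thresholds, and leaving out each library. A change of sign counts as a reversal only if the value was called under at least one of both settings.

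Members, lists and tests were chosen with earlier results of these data known. Named genes are the 10 members, Fermt1 and Itga9, listed genes and the 3 genes most correlated with each of Klf4, Klf6, Klf7 and Klf9. List levels are log2 of summed linear values. Methods and labels of the study differ also in dissociation enzyme and RNA kit. Depth is known per library only, and precision is given as the SD or SE over libraries. Some members of the lists are counted but not reported here by name.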

Additional observations from a re-analysis of the deposited data

Results flagged for a closer look

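Of 36 groups of values examined (8 KLF genes and their balance in 4 groups), 1 held a library far from the others. Klf7 in GFP-crush 3 was at 5.71, whereas the other 3 GFP-crush libraries were at 6.08 to 6.11. The gap made up 0.91 of the range of the group, above Dixon's 95% limit of 0.829 for 4 values. Chance alone marks about 1 group in 20.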

How the results depend on the processing

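Klf6 kept its direction with α9k1 in every fit, without and after crush. It kept its call in all of them except after crush with only the 2 groups compared (1.94, adjusted p = 0.71) and with the replicate block (1.88, adjusted p = 0.24). In α9k1-naive versus GFP-naive, the count of lower KLFs (2) was 1 at an adjusted p under 0.05 and 0 with the replicate block, and with 1 library left out it was between 0 and 3, at 1 without α9k1-naive 6 and 0 without GFP-naive 4. For α9k1 after crush, the count of higher KLFs (2) was 1 at an adjusted p under 0.05, without covariates, with AlignSeq.PC1 only, with the replicate block and no covariates, with the filter on low values (which removes Klf4), with median centring, and with trend and robust. It was 0 with only the 2 groups compared and with the replicate block, and between 1 and 2 with 1 library left out. The count of lower KLFs there (0) was 2 without covariates, with AlignSeq.PC1 only and with the replicate block and no covariates, and between 0 and 1 with 1 library left out, at 1 (Klf3) without α9k1-crush 2. In α9k1-crush versus α9k1-naive, the count of lower KLFs (0) was 7 in the same 3 settings, and between 0 and 2 with 1 library left out, at 2 without α9k1-crush 2 and 1 without α9k1-naive 3. The interaction had 1 higher KLF (Klf10) without covariates.

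Klf4 after crush with α9k1 turned to -0.031 without covariates, -0.0405 with AlignSeq.PC1 only and -0.031 with the replicate block and no covariates. Klf13 turned to -0.53, -0.54 and -0.53 in the same comparison and settings, and Klf9 turned to -0.60, -0.63 and -0.61 in α9k1-crush versus α9k1-naive. AlignSeq.PC2 and AlignSeq.PC3 are absent from all these fits, and the cause was not tested further. Values called under neither setting changed sign in 27 cases over the other settings, and in 24 cases over the fits with 1 library left out. A pairing by replicate number was not shown. Same-numbered libraries had correlations of their deviations of -0.27 to 0.15 (25 pairs, median 0.02) against -0.22 to 0.26 (109 pairs, median 0.00022) for other numbers. These overlapping ranges cannot exclude a pairing or a batch, and the batch term of the study is absent here. With the block, Klf7 (0.28, adjusted p = 0.44), Klf3 (-0.56, adjusted p = 0.19) and Klf10 (-0.53, adjusted p = 0.35) were not called for α9k1 without crush, nor Klf4 after it (1.41, adjusted p = 0.23), nor Klf7 for crush with GFP (-0.29, adjusted p = 0.30). The balance was between 0.41 and 0.55 in α9k1-naive, 0.07 and 0.19 in GFP-crush and 0.66 and 0.79 in α9k1-crush with 1 library left out. At equal covariates it was 0.26, 0.20 and 0.19 in these groups, so that of α9k1-crush fell from 0.73, and the cause was not tested. This fit and that with the replicate block and no covariates were chosen after seeing the data. Counting error of low genes such as Klf4 cannot be separated from these normalized values.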
